A study of Homo sapiens with 8 samples.

Results

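The genes described are 9 members of the complement system, namely C3, CFB, C1R, C1S, CFD, SERPING1, CD46, CD55 and CD59. They were chosen by name, and every transcript carrying the Entrez identifier of a member was summed to 1 value per gene. All 9 were among the 17131 genes of the table, and 8 of them had enough counts to be tested, SERPING1 being the exception. Bulk RNA sequencing was performed on HaCaT cells, an established line of human keratinocytes, under M5, a cocktail of oncostatin M, TNF-α, IL-1α, IL-22 and IL-17A at 10 ng/mL apiece for 24 h. The comparison addressed which transcripts depend on TOPK, the kinase encoded by PBK, through its inhibitor OTS514. Of the 8 libraries, 4 were titled M5_O5 and 4 were titled M5, and all of them are labelled as wild type cells of the same line. The methods describe 10 nM OTS514 given 12 h ahead of M5 and kept during the stimulation. By its wording the title M5_O5 stands for M5 plus OTS514, yet those libraries carry no treatment in the entered labels, and the libraries titled M5 carry the TOPK inhibitor. Groups are therefore named by title, and every direction below is M5_O5 relative to M5. Whether a lower value in M5_O5 is a lower or a higher value with OTS514 cannot be told apart from these labels. Nothing states that the libraries of a group came from separate cultures, so the p-values measure the spread between libraries, which may be technical. No culture without M5 was analysed here.

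Complement is a cascade of plasma and locally made proteins that marks surfaces for uptake, releases inflammatory fragments and can assemble a membrane pore. C1R and C1S are the proteases of the classical pathway, CFB and CFD form and activate the convertase of the alternative pathway, and both routes meet at C3. Host cells protect themselves with SERPING1 in the fluid phase and with CD46, CD55 and CD59 at the membrane. Keratinocytes are known to make several of these proteins, and C3 and CFB are known targets of inflammatory cytokines.

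The promoters of the 3 membrane regulators and of CFB are shown first, because the regulators carry the differences described below and CFB had the highest level. RefSeq promoter sequences of build GRCh38.p14, running from 250 bases before to 50 bases after a transcription start, were found for 6 of the 9 members. Where a gene has several starts (4 for CD59, 2 for CD46), the window of the most upstream one is shown. Capitals mark matches, on either strand, to the searched motifs.
CD55, chr1:207321428-207321727, plus strand: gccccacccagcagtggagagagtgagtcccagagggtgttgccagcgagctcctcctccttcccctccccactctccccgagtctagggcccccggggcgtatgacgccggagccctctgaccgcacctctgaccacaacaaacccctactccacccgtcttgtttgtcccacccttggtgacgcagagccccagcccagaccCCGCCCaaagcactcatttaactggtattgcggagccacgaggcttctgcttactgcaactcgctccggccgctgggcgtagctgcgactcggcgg
CD46, chr1:207751788-207752087, plus strand: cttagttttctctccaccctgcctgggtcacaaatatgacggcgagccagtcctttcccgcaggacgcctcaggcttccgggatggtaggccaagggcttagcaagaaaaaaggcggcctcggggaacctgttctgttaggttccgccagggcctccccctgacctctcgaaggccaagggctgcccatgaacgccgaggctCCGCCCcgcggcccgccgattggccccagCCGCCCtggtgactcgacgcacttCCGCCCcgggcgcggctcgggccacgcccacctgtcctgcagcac
CD59, chr11:33736430-33736729, minus strand: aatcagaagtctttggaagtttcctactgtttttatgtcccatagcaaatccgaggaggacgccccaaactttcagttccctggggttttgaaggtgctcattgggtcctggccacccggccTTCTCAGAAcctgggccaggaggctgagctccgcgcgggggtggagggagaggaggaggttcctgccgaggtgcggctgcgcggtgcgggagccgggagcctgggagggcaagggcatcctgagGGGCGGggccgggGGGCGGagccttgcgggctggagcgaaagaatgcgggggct
CFB, chr6:31945845-31946144, plus strand: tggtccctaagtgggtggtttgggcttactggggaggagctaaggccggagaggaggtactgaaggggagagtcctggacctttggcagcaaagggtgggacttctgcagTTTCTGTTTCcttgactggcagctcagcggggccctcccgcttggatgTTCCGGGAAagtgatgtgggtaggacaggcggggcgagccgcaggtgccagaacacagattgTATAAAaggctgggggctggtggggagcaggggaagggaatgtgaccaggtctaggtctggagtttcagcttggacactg
The motifs were TATAAA, the GC box GGGCGG, the STAT motif TTCNNNGAA, the C/EBP motif TTGCNNAA, the AP-1 motif TGANTCA and, given by name only, the IRF and NF-κB motifs. The window of CD55 held a GC box at -46 from the start. That of CD46 held GC boxes at -48, -19 and 6. That of CD59 held GC boxes at -4 and 10 and a STAT match at -128, while the windows of its 2 downstream starts held no GC box but C/EBP matches in one and AP-1 matches in the other. The remaining CD59 window overlaps the one shown. None of the 3 windows shown for the regulators held a TATA match, whereas that of CFB held one at -30, with a STAT match at -92 and an IRF match at -140. Among 35116 promoters of the same length, 45.0% held a GC box, 11.5% a TATA match, 7.66% a STAT match and 3.57% an IRF match. The share was 5.91% for NF-κB, 10.5% for C/EBP and 7.71% for AP-1. A match is a description of the letters only.

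The levels of the members per unit of transcript length, as deposited TPM summed per gene, spanned from 0.16 to 1200 TPM. CFB had the highest level, with a mean of 1144 TPM ± 38.6 (SD, n = 8) over all libraries, and ranked 116 among all genes of the table. CD46 followed with 310 ± 27.6 TPM and C3 with 279 ± 7.10 TPM. CD46 exceeded C3 in 7 of 8 libraries, and the SDs of this neighbouring pair overlapped, while each of the other members exceeded the next in 8 of 8 libraries. C1R had 227 TPM, CD59 had 168 TPM, C1S had 137 TPM and CD55 had 80.3 TPM. The levels of C1R, CFB and CFD include further placements of their transcripts, and counting only the first placement gave C1R 114 TPM, below CD59 and C1S, and CFB 505 TPM, still the highest. CFD, the protease that cleaves factor B, had 1.96 ± 0.334 TPM, and SERPING1, the C1 inhibitor, had 0.596 ± 0.230 TPM. Thus both proteases of C1 were expressed well above their fluid-phase inhibitor, and CFB well above the protease that activates it, at the level of transcripts.

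**Figure D1:**
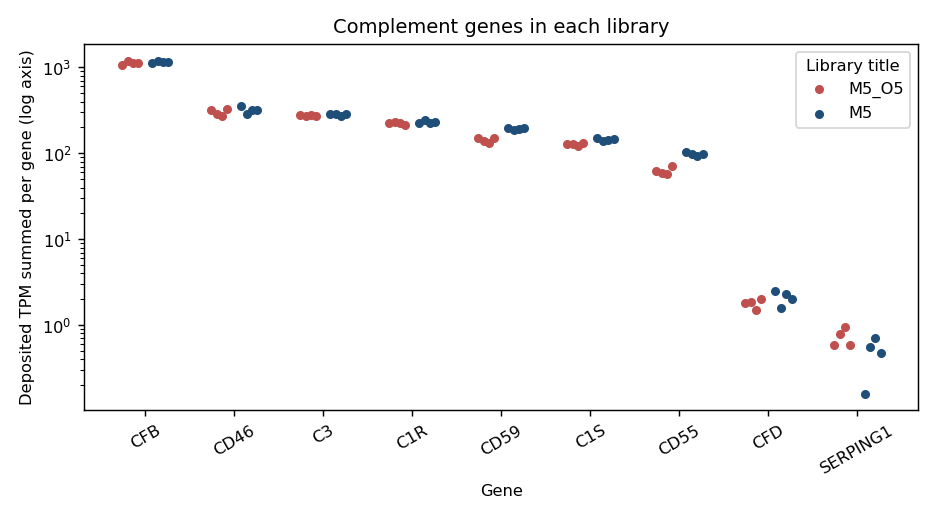
Deposited TPM of the 9 complement genes on a log axis, 1 point per library, red for the 4 libraries titled M5_O5 and blue for the 4 titled M5. CFB lies between 1080 and 1200 TPM in every library and SERPING1 between 0.16 and 0.94 TPM.

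The libraries held between 13708055 and 16922693 counts, and M5 replicate 1 had the smallest total. M5 replicate 1 also had the lowest C1S and CD59 level of its group, and values without it are given where a call changed. Markers of keratinocytes were high in all libraries. Their summed level was 23700 to 26400 CPM (counts scaled to library size) in M5_O5 against 28100 to 33400 CPM in M5. All 12 had a negative log2 fold change, and 8 passed edgeR's test (adjusted p under 0.05). Of all genes tested, 17.6% passed and were lower in M5_O5, and of those averaging 50 CPM or more 35.6% did. Among markers of other cells, melanocyte markers summed to at most 1.15 CPM and endothelial markers to at most 0.914 CPM. The leukocyte marker PTPRC was at 0 in all libraries, although the leukocyte list summed to 79.6 to 98.3 CPM in M5_O5 and 94.5 to 126 CPM in M5 and its member CD68 was lower in M5_O5. The fibroblast list summed to 33.1 to 36.6 CPM against 43.1 to 58.3 CPM, nearly all of it COL1A1. COL1A2 had 0 reads in every M5_O5 library and 1 to 14 in the M5 libraries, and COL3A1 had 0 and 2 to 5. LUM, DCN, PDGFRA, PDGFRB and DPT overlapped between the groups. The hepatocyte list was represented by TF alone, at 13.2 to 17.4 CPM. The part of these markers in the results was not tested. All libraries are labelled as the same keratinocyte line. In bulk samples of it, fewer cells expressing a gene and less of its RNA per cell cannot be told apart.

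Between the groups, 4 of the 8 tested members passed edgeR's quasi-likelihood test at a Benjamini-Hochberg adjusted p under 0.05, and all 4 were lower in M5_O5. They were the 3 membrane regulators CD55, CD59 and CD46 and the protease C1S. At the same threshold, 37.1% of the 12434 genes tested passed, 17.6% lower and 19.5% higher in M5_O5. Among the 3957 genes averaging 50 CPM or more, a range chosen after the values were seen that holds 7 of the 8 tested members, 35.6% passed and were lower, and the median log2 fold change was -0.105. All 8 tested members had a negative log2 fold change, with a median of -0.265 against 0.012 over all genes. This common direction was lost when the trend with expression level was removed, where C3 (0.011) and CFB (0.027) turned positive and C1R (-0.033) and CD46 (-0.063) came close to 0. The groups did not overlap in CPM for 4 of the 8, against 33.6% of all genes. No member reached a 2-fold difference, which 3.2% of all genes did while passing the test.

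CD55, or decay-accelerating factor, is a GPI-anchored protein that dissociates C3 convertases. Its level was 61.9, 63.4, 59.0 and 70.2 CPM in M5_O5 replicates 1 to 4, and 109, 111, 107 and 105 CPM in M5 replicates 1 to 4. Every M5_O5 library lay below every M5 library, and the distance between the groups was several times the spread within either. The mean was 63.6 ± 4.73 CPM in M5_O5 and 108 ± 2.33 CPM in M5 (SD, n = 4 each). CD55 in M5_O5 was at 58.9% of its M5 level, a log2 fold change of -0.76 (SE 0.06, edgeR adjusted p = 9.76e-07). Counted from the lowest fold change, it ranked 114 of 12434 genes. Of its 2 leading transcripts, NM_000574 held 63.2% of the CD55 count in M5_O5 and 60.8% in M5, and XM_017000467 held 28.9% and 29.1%. Neither of these shares passed its test.

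CD59, or protectin, is a GPI-anchored protein that blocks the last step of membrane pore assembly. It measured 636, 649, 604 and 651 CPM in the M5_O5 libraries and 883, 961, 952 and 965 CPM in the M5 libraries. The groups were again separate, and the lowest M5 library was replicate 1. The mean was 635 ± 21.8 CPM against 940 ± 38.5 CPM. CD59 was at 67.5% of its M5 level, with a log2 fold change of -0.57 (SE 0.06, edgeR adjusted p = 5.73e-06), and ranked 258 from the lowest. Of its 8 transcripts, 7 matched a GENCODE 29 model, and these 7 shared a single set of coding exon lengths that encodes 128 residues, so they differ outside the coding sequence. NM_000611 held 67.5% of the CD59 count in M5_O5 and 67.4% in M5. NM_203331 held 27.2% ± 0.50 and 28.5% ± 0.84, a difference of -1.33 percentage points, and the groups did not overlap. It did not pass after adjustment over the 9 transcript shares tested (exact permutation p = 0.0286, adjusted p = 0.129). That p is the lowest this test can give, and it passes after adjustment only if most of the 9 shares reach it. The test therefore could not decide whether this share differed.

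CD46, or membrane cofactor protein, is a transmembrane cofactor with which factor I inactivates C3 and C4 fragments. It measured 536, 526, 494 and 569 CPM in the M5_O5 libraries and 632, 596, 623 and 623 CPM in the M5 libraries. No library of one group reached the other, but the gap was narrow. The mean was 531 ± 31.2 CPM against 618.5 ± 15.8 CPM, a log2 fold change of -0.22 (SE 0.06, edgeR adjusted p = 0.00732). CD46 no longer passed with scaling by library size alone, where the log2 fold change was -0.10 (edgeR adjusted p = 0.168), or after removal of the trend with expression level, where it was -0.06 (edgeR adjusted p = 0.46). Nor did it pass with limma on log2(TPM + 1), at -0.095 (limma adjusted p = 0.367).

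**Figure D2:**
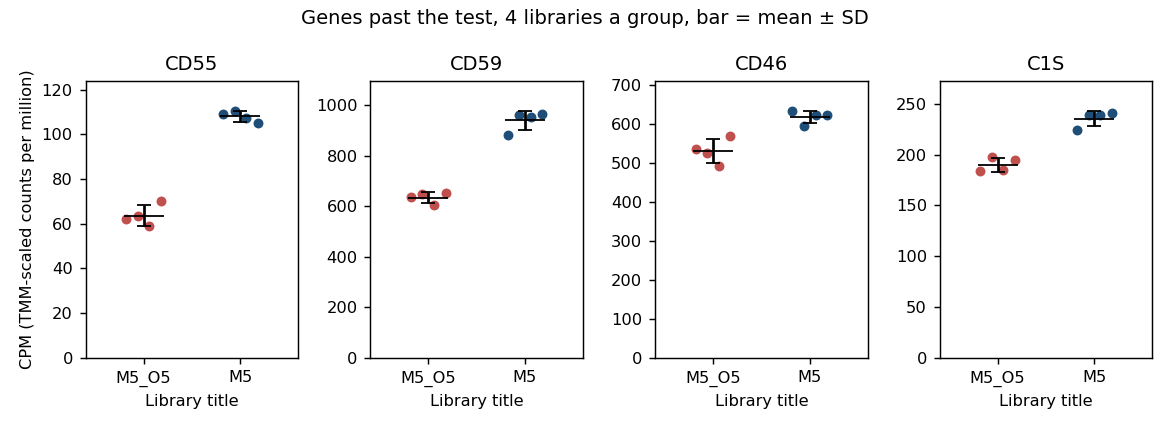
CPM of CD55, CD59, CD46 and C1S, the members past the test, with 1 point per library and bars for the mean and SD of the 4 libraries of each title; each axis starts at 0. The groups do not overlap in any panel, and as a share of the M5 level the step is widest for CD55, at 58.9%, against 67.5% for CD59, 85.9% for CD46 and 80.7% for C1S.

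CD46 is spliced into many forms that differ in a region rich in serine, threonine and proline and in their cytoplasmic tails. Its count was spread over 13 transcripts. NM_172353, which encodes 369 residues, held 45.4% ± 2.39 of the CD46 count in M5_O5 and 40.1% ± 1.94 in M5. NM_153826, which encodes 384 residues and carries 1 more coding exon, of 45 bases, held 30.6% ± 2.90 and 37.9% ± 2.48. The groups did not overlap for NM_172353, and they overlapped for NM_153826. Neither share passed after adjustment over the 9 shares tested (exact permutation p = 0.0286, adjusted p = 0.129 for NM_172353, and exact permutation p = 0.0571, adjusted p = 0.171 for NM_153826). Since 0.0286 is the lowest p this test can give, a share at it passes only if most of the 9 reach it. The test therefore could not decide whether these shares differed. After these values were seen, the 8 transcripts with a GENCODE 29 model were grouped by their coding exons. The 4 with a coding exon of 45 bases held 41.3, 43.8, 43.1 and 39.9% of the CD46 count in the M5_O5 libraries, against 48.8, 51.2, 46.2 and 49.0% in the M5 libraries. The groups did not overlap, and since this grouping was chosen on the values, no test is given. Transcripts with a last coding exon of 49 bases held 20.6% ± 2.02 in M5_O5 and 18.8% ± 0.719 in M5, values that overlapped. The transcript counts are estimates of shared reads, so their error is larger than that of counting.

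C1S, the second protease of C1, which cleaves C4 and C2, measured 184, 198, 184 and 195 CPM in the M5_O5 libraries. In the M5 libraries it measured 224, 239, 239 and 241 CPM, all above the M5_O5 libraries. The mean was 190 ± 7.11 CPM against 235.5 ± 7.71 CPM, a log2 fold change of -0.31 (SE 0.05, edgeR adjusted p = 0.000388). C1S was thus at 80.7% of its M5 level. Its transcript NM_201442 held 75.2% of the count in M5_O5 and 75.1% in M5.

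C1R, the protease that activates C1S, measured 284, 318, 309 and 279 CPM in the M5_O5 libraries and 299, 373, 331 and 339 CPM in the M5 libraries. The groups overlapped, and C1R did not pass the test (log2 fold change -0.17, 95% interval -0.32 to -0.03, edgeR adjusted p = 0.0625). Without M5 replicate 1 its log2 fold change was -0.23 (edgeR adjusted p = 0.00744), with library size alone -0.056 (edgeR adjusted p = 0.474) and with the expression trend removed -0.033 (edgeR adjusted p = 0.708). The ratio of C1R to C1S within a library was 1.75 ± 0.116 in M5_O5 and 1.59 ± 0.110 in M5 on the TPM scale, and with first placements only it was 0.876 ± 0.0580 and 0.796 ± 0.0550. The groups overlapped either way.

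C3, the protein on which all pathways converge, measured 791, 864, 869 and 794 CPM in the M5_O5 libraries and 857, 999, 905 and 947 CPM in the M5 libraries. The lowest M5 library lay below the highest M5_O5 libraries. C3 had a log2 fold change of -0.16 (95% interval -0.29 to -0.03) and did not pass the test (edgeR adjusted p = 0.0577), but without M5 replicate 1 it was -0.20 (edgeR adjusted p = 0.0106). It was -0.044 with scaling by library size alone (edgeR adjusted p = 0.53) and 0.011 with the expression trend removed (edgeR adjusted p = 0.882). CFB, or factor B, provides the catalytic part of the alternative convertase. It measured 1366, 1633, 1529 and 1444 CPM in M5_O5 and 1481, 1835, 1697 and 1670 CPM in M5, with wide overlap. Its log2 fold change was -0.16 (95% interval -0.32 to -0.0021, edgeR adjusted p = 0.104), and without M5 replicate 1 it was -0.22 (edgeR adjusted p = 0.0122). With library size alone it was -0.045 (edgeR adjusted p = 0.591), and with the expression trend removed it was 0.027 (edgeR adjusted p = 0.718). The intervals of C3, CFB and C1R leave room for a difference of up to about the size seen in C1S.

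The CFB value also depended on how the table was summed. CFB is listed in 7 rows, of which 6 are further placements of its single transcript, and these held 49.6 to 61.4% of its count. The first placement alone held 43.8, 38.6, 41.3 and 39.1% of the CFB count in M5_O5 and 50.4, 48.7, 43.7 and 47.6% in M5 (exact permutation p = 0.0571). Of the further placements, 4 held the same counts as each other in every library. With only the first placement counted, CFB had a log2 fold change of -0.39 and passed (edgeR adjusted p = 0.000788). That value depends on the share of reads assigned to the first placement as well as on the CFB total. What the further placements are was not settled. C1R and CFD had 2 further placements each, whose counts summed to those of the first placements in every library, and the remaining members had none.

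CFD, factor D, had only 14 to 21 reads in a library. Its log2 fold change was -0.33 with an interval from -0.80 to 0.15 (edgeR adjusted p = 0.291) and no difference was detectable at this depth. With the expression trend removed it was -0.608 and did not pass either (edgeR adjusted p = 0.0507). SERPING1 had 9, 13, 15 and 9 reads in the M5_O5 libraries and 2, 9, 11 and 8 reads in the M5 libraries. These overlapped (exact permutation p = 0.314), and no difference in SERPING1 was detectable at this depth.

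**Figure D3:**
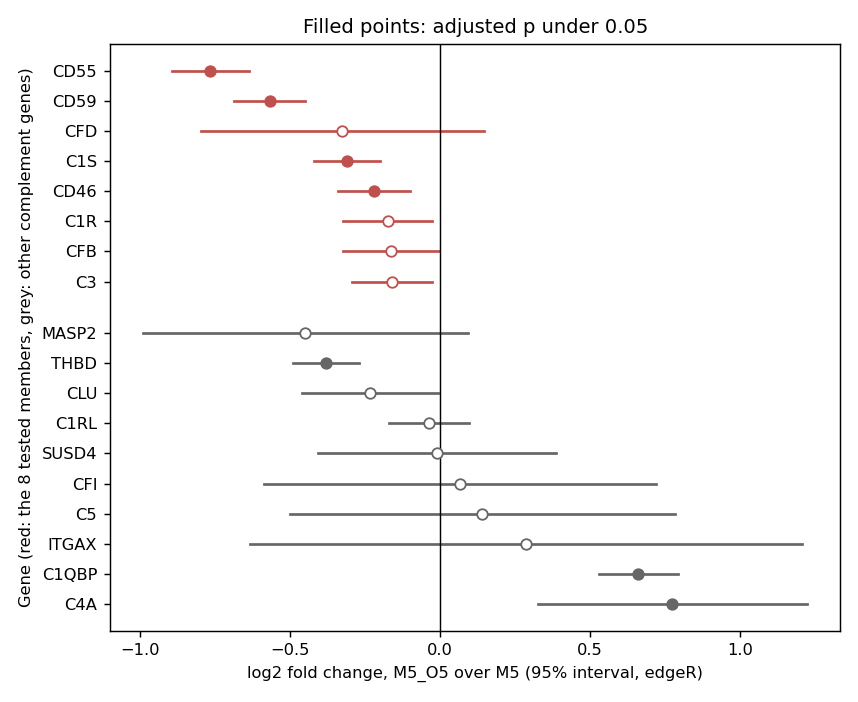
Log2 fold change of M5_O5 over M5 with the 95% interval from edgeR for the 8 tested members (red) and 10 of the 11 other tested complement genes (grey), filled where the adjusted p was under 0.05. All 8 members lie left of 0, from -0.76 for CD55 to -0.16 for C3, while the other complement genes lie on both sides; with the expression trend removed, C3 (0.011) and CFB (0.027) turn positive.

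Transcript levels of activators and regulators were set against each other as ratios of TPM within a library, which do not depend on library scaling. The ratios were chosen after the values were seen, and several share a gene, so they are a description with no test. C3 over CD55 was 4.44 ± 0.482 in M5_O5 and 2.88 ± 0.0785 in M5. C3 over CD59 was 1.94 ± 0.148 and 1.46 ± 0.0569. For both, the libraries did not overlap between titles. C3 itself was at 276 ± 5.56 TPM in M5_O5 and 282 ± 7.57 TPM in M5. These ratios therefore largely repeat the differences of CD55 and CD59 given above. The regulators also differed in ratio to each other, with CD59 over CD55 at 2.29 ± 0.134 against 1.98 ± 0.0789 and CD46 over CD55 at 4.80 ± 0.209 against 3.26 ± 0.222, again without overlap. C3 over CD46 was 0.926 ± 0.0964 and 0.887 ± 0.0798, which overlapped. Ratios with CFB depended on its placements. CFB over CD55 was 18.2 ± 2.03 in M5_O5 and 11.8 ± 0.685 in M5, and 7.41 ± 0.883 and 5.61 ± 0.238 with first placements only, without overlap on either count. CFB over CD59 was 7.93 ± 0.706 and 5.98 ± 0.334, without overlap, but 3.22 ± 0.256 and 2.85 ± 0.215 with first placements only, which overlapped. CFB over C3 was 4.10 ± 0.180 and 4.11 ± 0.148 with all placements, which overlapped, but 1.66 ± 0.0382 and 1.95 ± 0.0763 with first placements only, which did not.

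**Figure D4:**
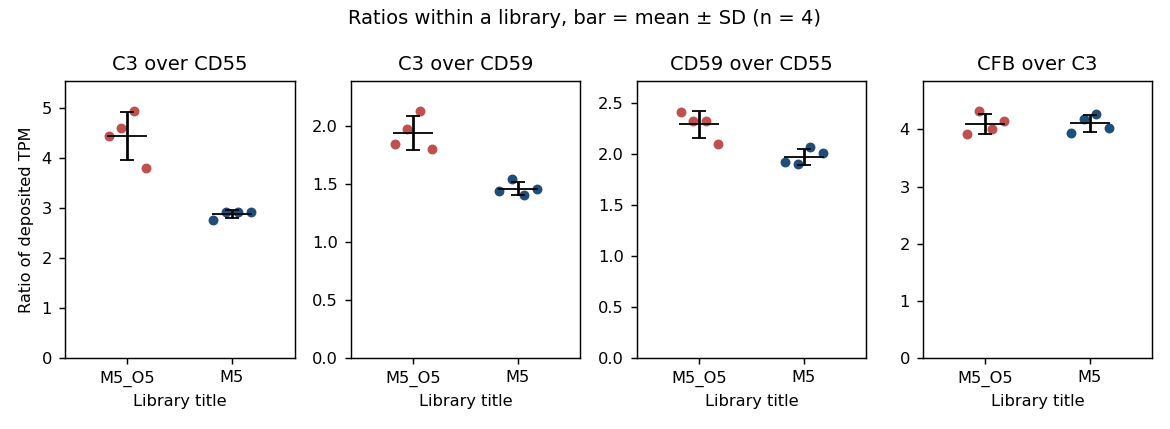
Ratios of deposited TPM within each library, 1 point per library, with bars for the mean and SD of 4 libraries and axes from 0. C3 over CD55, C3 over CD59 and CD59 over CD55 are separate between the titles, whereas CFB over C3, with all placements of CFB counted, overlaps around 4.10 and 4.11.

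Other complement genes were read from a list of 53, of which 36 were in the table and 11 had enough counts to be tested. Of these 11, 3 were higher in M5_O5, 1 was lower and 7 did not pass, a share close to the 37.1% of all genes that passed, with a median log2 fold change of 0.066. C1QBP, a largely mitochondrial protein that binds the globular heads of C1q, measured 65.3, 62.8, 66.0 and 61.5 CPM in M5_O5 and 43.3, 41.9, 38.1 and 38.5 CPM in M5. Its log2 fold change was 0.66 (SE 0.06, edgeR adjusted p = 4.03e-06), opposite in direction to the membrane regulators. THBD, thrombomodulin, which promotes the inactivation of complement fragments through a carboxypeptidase, measured 117 ± 3.65 CPM in M5_O5 and 152 ± 5.85 CPM in M5 (log2 fold change -0.38, edgeR adjusted p = 8.23e-05). CLU, an inhibitor of the terminal complex, had a log2 fold change of -0.23 and did not pass (edgeR adjusted p = 0.0978).

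Among early components, C4A measured 2.90 CPM in M5_O5 and 1.69 CPM in M5 (log2 fold change 0.77, edgeR adjusted p = 0.0101). C4A and C4B are nearly identical and share reads, so the value of either is uncertain. Their summed counts were 73, 57, 60 and 57 in M5_O5 and 19, 38, 27 and 28 in M5, which did not overlap. After removal of the trend with expression level C4A had a log2 fold change of 0.52 and did not pass. C1RL, a protease related to C1R, had a log2 fold change of -0.04 (edgeR adjusted p = 0.664), and MASP2, a protease of the lectin pathway, had -0.45 at about 1 CPM (edgeR adjusted p = 0.179). Terminal components were scarcely detected, since only C5 was tested (log2 fold change 0.14, edgeR adjusted p = 0.74) and C9 had 2 to 11 reads and C8G 0 to 4 reads in a library. Of the receptors, ITGAX was tested and had a log2 fold change of 0.29 (edgeR adjusted p = 0.63), while ITGAM had 4 to 11 reads and C3AR1 2 to 12 reads. FCN1, CR1, CPN1 and CSMD1 had no reads in any library.

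CD55 and CD59 reach the membrane through a GPI anchor, which a chain of PIG enzymes builds and PGAP enzymes remodel. All 31 genes of that list were tested, of which 6 were higher and 3 lower in M5_O5, against 19.5% and 17.6% of all genes, so the list was called no more often than genes at large. Its median log2 fold change was 0.163. PIGX and PIGW, which act in adding mannose and in acylating inositol, had the largest positive changes that passed, with log2 fold changes of 0.51 (edgeR adjusted p = 0.00302) and 0.50 (edgeR adjusted p = 0.00907). PGAP6 and PGAP3 had the largest negative ones, at -0.45 (edgeR adjusted p = 0.000293) and -0.39 (edgeR adjusted p = 0.00498).

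C3 and CFB belong to the wider set of acute-phase proteins. Of 21 other acute-phase genes, 11 were tested, 3 were higher in M5_O5 and none was lower, against 19.5% and 17.6% of all genes, with a median log2 fold change of 0.093. So few genes give no share that stands apart from that background. LBP, which carries bacterial lipopolysaccharide, measured 4.29 CPM in M5_O5 and 1.56 CPM in M5 (log2 fold change 1.45, edgeR adjusted p = 1.3e-05). SAA4 had a log2 fold change of 0.69 (edgeR adjusted p = 0.0453), and it did not pass when any M5_O5 library, M5 replicate 1 or M5 replicate 2 was left out (0.52 to 0.73). Nor did it pass with DESeq2 (DESeq2 adjusted p = 0.0883), without a filter on counts (edgeR adjusted p = 0.0585) or with the expression trend removed (0.41, edgeR adjusted p = 0.258). ITIH4, named after its value was seen because it lay under the level set for naming, had 1.27 (edgeR adjusted p = 0.00313). That value rests on 18, 30, 21 and 22 reads in the M5_O5 libraries and 4, 10, 10 and 9 reads in the M5 libraries. Values of ITIH4 under other processing are not given here. The 3 most abundant genes of the list did not pass. LCN2, a siderophore-binding protein, had a log2 fold change of -0.19 (edgeR adjusted p = 0.148), and the serum amyloid genes SAA1 and SAA2, which share much of their sequence, had 0.09 (edgeR adjusted p = 0.367) and 0.16 (edgeR adjusted p = 0.0862).

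The genes whose pattern over the 8 libraries lay closest to a member were sought among 8676 genes averaging 10 CPM or more. The measure was the root mean square difference of log2 CPM after each gene was centred on its mean. CD55 was nearest to C1orf74, at 0.054, and ABCG1, at 0.076. CD59 was nearest to FAT1, at 0.025, and ZBED2, at 0.035. CD46 was nearest to FMNL2, at 0.013, and DIP2B, at 0.020, and C1S to PTPN3, at 0.015, and IST1, at 0.023. C3 was nearest to GNA12, at 0.019, and UBB, at 0.022, CFB to EIF3D, at 0.019, and BTF3, at 0.022, and C1R to CPSF1, at 0.027, and CDK16, at 0.030. The nearest genes of CFD, UBE2V1 at 0.085 and UBXN7 at 0.086, were farther away. However, CFD averaged 1.09 CPM, so counting noise adds to its distances and they cannot be set beside those of the other members. The distances are descriptions over 8 libraries, with no test.

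The differences of CD55, CD59 and C1S passed under every processing that was run, with log2 fold changes from -0.82 to -0.65 for CD55, from -0.60 to -0.40 for CD59 and from -0.33 to -0.18 for C1S.

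**Figure D5:**
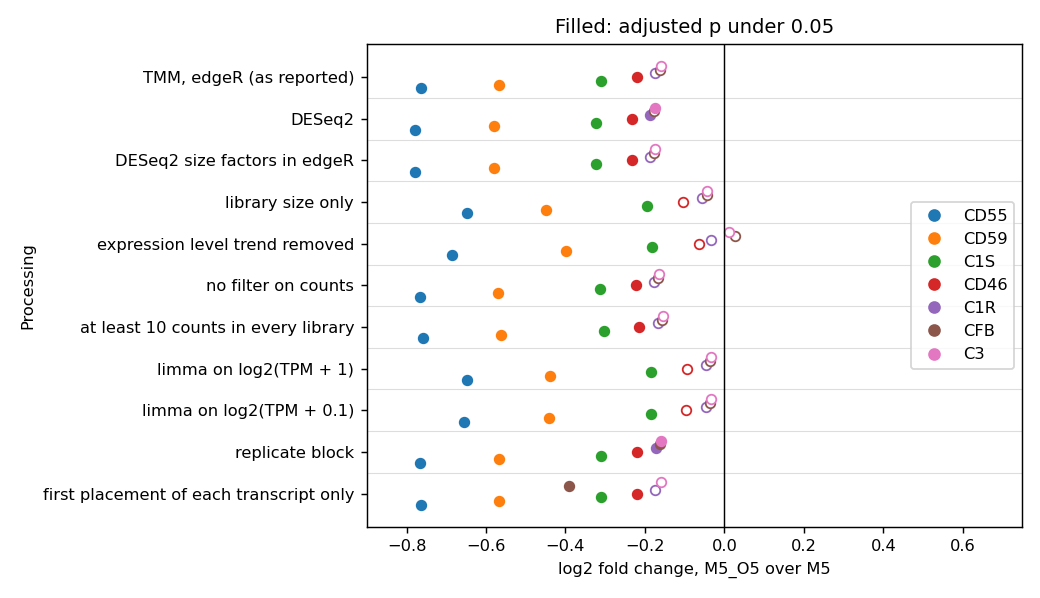
Log2 fold change of M5_O5 over M5 for 7 members (colours) under each processing with all 8 libraries, filled where the adjusted p was under 0.05. CD55, CD59 and C1S are filled in every row, CD46 is open in 4 rows, and CFB moves to -0.39 when only the first placement of its transcript is counted.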

How the data were processed

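RNA was sequenced from 8 HaCaT libraries. Per the paper's methods the authors filtered reads, aligned them with HISAT2 and quantified them with StringTie, while the submitters' processing notes name HISAT2 2.1.0, Bowtie2 2.2.5, RSEM 1.2.8 and build mm10, although the rows are human RefSeq transcripts. Strand use is not given in the sources used here. The authors deposited an estimated count, not normalized, for each of 86639 transcript rows, with 4181 further placements of a transcript. They also deposited TPM, used here for levels and ratios, and FPKM, which was not tested. The deposited columns of group means were not used.

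Estimated counts were summed per Entrez gene and rounded. Genes were filtered with filterByExpr, scaled by TMM and tested with edgeR 4.0.16 (R 4.3.3) over all 12434 genes kept, with Benjamini-Hochberg adjustment. CPM are TMM-scaled. Single values and transcript shares of 10 to 90% were compared with two-sided exact permutation tests, which cannot give a p below 0.0286. Total counts ranged from 13708055 to 16922693, and the biological coefficient of variation was 7.42%. Transcript models came from GENCODE 29. The fits were tested on simulated data.

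The members and gene lists were chosen with earlier results of these data known. Named were all members, other complement and acute-phase genes past the test with a mean of 1 CPM or more, the 3 most abundant genes of the acute-phase list and of each complement sublist (early components, terminal components, regulators, receptors), for the GPI list the 2 most changed genes each way, and for each tested member the 2 genes nearest in pattern at 10 CPM or more. Alternatives were DESeq2 1.42.0, its size factors, library size alone, removal of the expression trend, other filters, limma 3.58.1 on log2(TPM + 1) and log2(TPM + 0.1), a replicate block, each library left out and, added after the data were seen, the first placement of each transcript only. The values of 1 other complement gene that passed are not reported here, although it is included in the counts of its list. Replicates of a group differed beyond counting noise, so all were counted.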

Additional observations from a re-analysis of the deposited data

Results flagged for a closer look

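Of 48 groups of 4 values checked for an outlying library, 3 held one, and chance alone gives about 2.4. C1S in M5 replicate 1 was 224 CPM, below the 238.6 to 240.6 CPM of the other M5 libraries. CD59 in the same library was 883.2 CPM, below the other M5 libraries at 951.9 to 965.4 CPM. The share of the CD59 count in NM_000611 was 66.17% in M5 replicate 3, below 67.78 to 67.93% in the others. Both CPM values lay above every M5_O5 library.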

How the results depend on the processing

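CD55, CD59 and C1S kept their direction and passed under every alternative. CD46 did not pass with library size only (-0.10), after removal of the expression trend (-0.063), or with limma on log2(TPM + 1) (-0.095) and log2(TPM + 0.1) (-0.096). The median of all genes moved to 0.128, 0.116 and 0.135 under library size only and the limma scales. With that median subtracted, the log2 fold change of CD46 was -0.23, -0.21 and -0.23. After removal of the expression trend it was -0.057 on the same measure. Library size only gave 1008 genes lower and 3858 higher, where TMM gave 2192 and 2420. The limma scales gave 761 and 768 lower, and log2(TPM + 1) gave 152 genes past a 2-fold change. C3 and C1R passed with DESeq2 (-0.17 and -0.19). Removal of the trend turned C3 (0.011) and CFB (0.027) positive, and first placements only took CFB to -0.39. Causes were not tested beyond what each alternative's construction fixes.

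Whether replicate numbers pair the libraries was not settled. Same-numbered deviations correlated at 0.19, 0.082, -0.009 and 0.018, and unlike-numbered ones at -0.184 to 0.177. With the replicate block 7 members passed, C3 (-0.16), CFB (-0.16) and C1R (-0.17) being added. Leaving out 1 library gave 4 to 7 members, with 7 without M5 replicate 1, and ranges of -0.20 to -0.12 for C3, -0.22 to -0.12 for CFB and -0.23 to -0.12 for C1R. Differences in transcript share that changed sign, M5_O5 minus M5 in percentage points, ranged from -1.15 to 0.21 for NM_001734 and -0.58 to 0.89 for NM_201442 of C1S, from -2.17 to 1.18 for XM_017000467 of CD55 (0.26 from TPM) and from -0.32 to 0.27 for NM_000611 of CD59. Depth limits CFD and SERPING1.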
